A study of Mus musculus with 14 samples.

Results

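Immunoglobulin variable (V) segments are the gene pieces that encode most of the antigen-binding part of an antibody. Those described here were the segments whose symbol starts with Ighv (heavy chain), Igkv (kappa light chain) or Iglv (lambda light chain) and that had at least 10 reads summed over 14 RNA-seq libraries. This left 153 of 348 annotated V segments, out of 55450 gene identifiers in all. The 153 were 72 of 185 Ighv, 78 of 160 Igkv and 3 of 3 Iglv segments, and 10 of them are annotated as pseudogenes. A further 70 segments had 1 to 9 reads and 125 had none. At the edge of the threshold, 6 segments had exactly 10 reads and 7 had exactly 9. The read totals chose the members, so their levels are given as a description, and only differences between groups of libraries were tested.

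The libraries held long-term hematopoietic stem cells (LT-HSCs), marrow cells able to sustain blood formation for life, of female C57BL/6 mice. All were sorted as lineage negative, Sca-1 and c-Kit positive, CD48 negative and CD150 positive, with B220, the B cell form of CD45, among the lineage antibodies used to remove mature cells. Selp high-derived (3 libraries) and Selp low-derived (3 libraries) cells were CD45.2+ donor LT-HSCs recovered 16 weeks after 1000 Selp high or Selp low cells entered lethally irradiated recipients aged 10 to 16 weeks. They were not gated on P-selectin (Selp), an adhesion receptor. Selp high (4 libraries) and Selp low (4 libraries) cells were the input, sorted by surface P-selectin from 4 mice older than 24 months, with 5000 cells per library. Donors of all 4 groups were thus old, and recipient, irradiation and the CD45.2 gate differ between the stages and cannot be told apart. Before transplantation, libraries with the same number were taken as 1 mouse. The labels do not say if the post-transplant libraries stem from different recipients, so p-values measure only how these libraries vary.

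An antibody gene is assembled in a developing B cell, when the RAG enzyme joins 1 V segment to D and J segments (heavy chain) or to a J segment (light chains). The assembled V is then transcribed at a high rate together with a constant region that sets the antibody class, and each B cell and its progeny keep their own choice of V. In a mixture of many B cells the reads spread over many V segments, and in the progeny of few cells they pile up on few. Plasma cells, which secrete antibody and live in the bone marrow, carry very large amounts of this RNA. Stem cells are not known to assemble antibody genes, although unrearranged segments can be transcribed at a low level. A read count on a V segment does not tell a rearranged from an unrearranged transcript.

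Segments that carry the results on the 4 mice are shown by the last 60 bases of their reference transcripts, which are coding sequence up to the end that is joined in recombination. The letters are from GENCODE M21 on GRCm38, and capitals mark the codon of the conserved cysteine near the end of the V segment. It was found as the last 3 bases of the pattern T-A-N-T-N-N-T-G followed by C or T. That pattern was present in the last 70 bases of 147 of the 153 members.
Igkv10-96: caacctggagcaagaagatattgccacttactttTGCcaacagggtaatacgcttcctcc
Ighv1-77: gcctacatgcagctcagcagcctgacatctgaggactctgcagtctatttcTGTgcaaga
Igkv6-32: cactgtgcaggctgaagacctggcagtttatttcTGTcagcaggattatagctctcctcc
Ighv2-2: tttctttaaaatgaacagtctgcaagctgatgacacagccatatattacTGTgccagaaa
Igkv14-126: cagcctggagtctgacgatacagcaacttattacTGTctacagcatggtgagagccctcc
Ighv11-2: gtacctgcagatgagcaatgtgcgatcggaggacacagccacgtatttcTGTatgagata
Ighv1-12: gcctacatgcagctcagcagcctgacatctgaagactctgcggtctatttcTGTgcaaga
Igkv10-96 lies at chr6:68631963-68632442 (minus strand), Igkv6-32 at chr6:70074024-70074603 (minus strand) and Igkv14-126 at chr6:67896172-67896642 (plus strand). Ighv1-77 lies at chr12:115861867-115862355, Ighv2-2 at chr12:113588267-113588702, Ighv11-2 at chr12:114048241-114048812 and Ighv1-12 at chr12:114615850-114616318, all on the minus strand.  Ighv1-12, which led the heavy chains of Selp high replicate 1, is shown because its end differs from that of Ighv1-77 at 2 of 60 bases. Lined up at the marked codon, Ighv2-2 differs from Ighv1-77 at 21 of 58 bases.

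Over the last 280 transcript bases, the median identity of a member to its closest other V segment was 95.4%, and 83 of 153 members were at 95% or more. Counts of such copies are uncertain, since reads can be lost as multimapping or placed on a copy. Of the segments shown above, the kappa segments were below 95%. Igkv10-96 was 94.3% identical to Igkv10-94, Igkv6-32 was 87.5% identical to Igkv6-17 and Igkv14-126 was 90.7% identical to Igkv14-111. Ighv11-2 was 98.6% identical to Ighv11-1, which had 9 reads. Ighv1-77 was 95.7% identical to Ighv1-75 (41 reads) and Ighv2-2 was 97.9% identical to Ighv2-4 (6 reads). Igkv6-20, named below, was 98.2% identical to Igkv6-29 (11 reads). Counts of these segments share the limit above, also where the copy had few reads. The counts carry no strand information, so a V segment and an antisense transcript cannot be told apart.

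Gene-assigned reads numbered 22374794 to 38216775 a library, and V segments took 0.000631 to 0.236% of them. The LT-HSC marker list (12 genes, among them Kit and Gata2) summed to 3937 to 6508 CPM (counts per 1e6 reads, after TMM scaling of library sizes). The most neutrophil RNA was in Selp low-derived replicate 2 and in both sorts of mouse 4. Summed neutrophil markers (10 genes) reached 350 to 2036 CPM in Selp high-derived and 1427 to 12236 CPM in Selp low-derived libraries, and 280 to 19687 CPM in Selp high and 2053 to 14585 CPM in Selp low libraries. The part of these cells in the results below was not tested, and results are given with and without those 3 libraries where they differ.

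V segment RNA was found in all 14 libraries at levels that spanned from 6.22 to 2404 CPM. Summed over the 153 members, the level was 117, 6.22 and 72.2 CPM in Selp high-derived replicates 1 to 3, and 399, 100.3 and 41.02 CPM in Selp low-derived replicates 1 to 3. It was 28.0, 98.5, 107 and 1022 CPM in Selp high replicates 1 to 4, and 145, 153, 100.2 and 2404 CPM in Selp low replicates 1 to 4. Mouse 4 stood far above the other 3 mice in both sorts, and it gave 70.8% of all 134545 member reads. Selp high-derived replicate 2 was the lowest library, with 148 reads on V segments. In bulk RNA, fewer B-lineage cells and less antibody RNA per cell cannot be told apart.

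**Figure D1:**
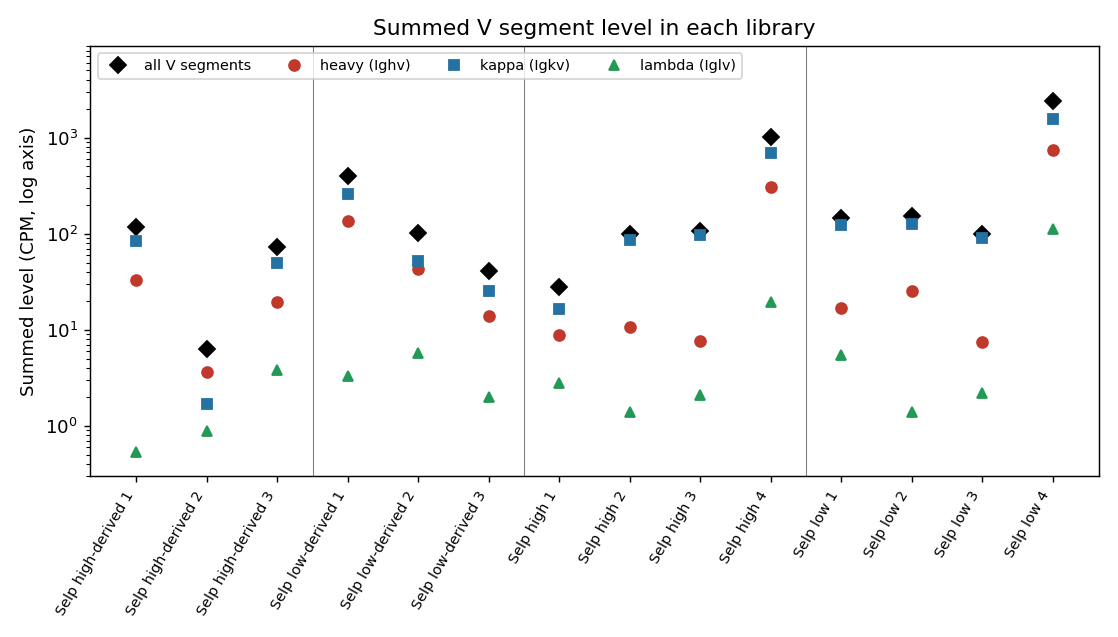
Summed level of the 153 V segments and of the heavy, kappa and lambda segments in each library, in CPM on a log axis, with libraries grouped from left to right as Selp high-derived, Selp low-derived, Selp high and Selp low. Mouse 4 (number 4 in both pre-transplant groups) stands at 1022 and 2404 CPM, and Selp high-derived replicate 2 is lowest at 6.22 CPM.

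Within a mouse the Selp high library had the lower summed level in 3 of 4 mice, with ratios of 0.193, 0.645, 1.07 and 0.425 in mice 1 to 4. Selp high libraries averaged 314 ± 473 CPM and Selp low libraries 701 ± 1136 CPM (SD, n = 4 each), and the groups overlapped. The log2 ratio of these means was -1.16, and without Selp low replicate 4 it was 1.24. After transplantation the means were 65.1 ± 55.6 CPM in Selp high-derived and 180 ± 192 CPM in Selp low-derived libraries (SD, n = 3 each), again with overlap. The log2 ratio of these means was -1.47, and without Selp low-derived replicate 1 it was -0.12. The 6 post-transplant libraries averaged 123 ± 141 CPM and the 8 pre-transplant libraries 507 ± 832 CPM (SD), a log2 ratio of the means of -2.05. That ratio was 0.27 without the 3 libraries with the most neutrophil RNA and -0.95 without Selp low replicate 4. No test was made of these sums. The spread between libraries within groups was 2.14, 1.98 and 2.03 (SD, log2) in the 3 comparisons in this order, so the first 2 ratios were smaller than it and the stage ratio was about equal to it.

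Kappa segments held 68.1% of member reads, heavy segments 28.5% and lambda segments 3.45%. Kappa is the main light chain of the mouse, and lambda has few V segments. Kappa led in 13 of 14 libraries. Its share ran from 27.0 to 71.6% of V reads in Selp high-derived and from 51.2 to 65.4% in Selp low-derived libraries, and from 58.8 to 90.9% in Selp high and from 64.4 to 90.4% in Selp low libraries. Selp high-derived replicate 2 was the exception, with 87 heavy, 40 kappa and 21 lambda reads. Heavy V reads numbered 4.76 to 20.0 per 100 reads on heavy-chain constant regions, and kappa V reads 22.9 to 70.6 per 100 reads on Igkc, the kappa constant region. All of these are shares of reads. Members had exon lengths of 329 to 501 bases, and the leading segment was the same per exon length in 14 of 14 libraries.

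Few segments carried most of the reads, and they differed from mouse to mouse. The 12 largest members held 57.7% of member reads. They were Igkv10-96, Ighv1-77, Igkv6-32, Igkv14-126, Igkv12-44, Ighv1-11, Igkv8-16, Ighv3-6, Igkv3-2, Igkv15-103, Igkv6-20 and Igkv8-21. Of these, Igkv10-96, Ighv1-77, Igkv12-44, Ighv1-11, Igkv8-16, Ighv3-6, Igkv3-2 and Igkv8-21 had more reads in Selp low replicate 4 than in any other library.

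In mouse 4, 123 members had a read in Selp high and 127 in Selp low, more than in any other library, at a far higher number of V reads. Igkv10-96 led both of its libraries, with 7712 reads or 29.9% of V reads (95% interval 29.3 to 30.5%) in Selp high and 14863 reads or 21.4% (21.1 to 21.7%) in Selp low. All intervals are exact Clopper-Pearson intervals and cover counting error only. In the 12 other libraries Igkv10-96 had at most 17 reads. The leading heavy segment, Ighv1-77, had 2549 reads in Selp high and 5581 in Selp low, against at most 4 elsewhere. Ighv1-11 (1596 and 4198 reads) and Igkv8-16 (1856 and 3592 reads) were likewise high in both. Other segments were high in 1 sort of this mouse only. Igkv15-103 had 2839 reads in Selp high and 31 in Selp low, and Ighv6-3 had 1699 and 13. Igkv8-21 had 6 reads in Selp high and 2961 in Selp low, and Iglv2 had 18 and 2161.

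Mouse 3 was led by Igkv6-32 in both sorts. It had 2218 reads, 71.5% of V reads (69.9 to 73.1%), in Selp high and 2177 reads, 83.9% (82.4 to 85.3%), in Selp low. The leading heavy segment of both libraries was Ighv2-2, with 120 and 134 reads, and in the other 12 libraries Ighv2-2 had at most 17. Thus 1 heavy and 1 kappa segment led both sorts of this mouse.

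Mouse 2 was led by different kappa segments in its sorts. Igkv4-91 had 1849 reads in Selp high, 70.2% of V reads (68.4 to 71.9%), and 0 in Selp low. Igkv14-126 had 306 reads in Selp high and 4386 in Selp low, where it made up 76.8% (75.7 to 77.9%). Ighv11-2 moved with it, at 32 reads in Selp high and 754 in Selp low. Both also had reads in mouse 4, at 150 and 1103 for Igkv14-126 and at 28 and 164 for Ighv11-2, Selp high before Selp low. Elsewhere they had at most 21 and at most 1 read. Together Ighv11-2 and Igkv14-126 are known as the chains of antibodies to phosphatidylcholine made by innate-like B cells, which form early in life. This pair was singled out after its values were seen, and the cells that made these reads were not identified.

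Mouse 1 had the fewest V reads before transplantation. Igkv5-43 led Selp high with 152 reads, 20.7% of V reads (17.9 to 23.9%), and had 88 in Selp low, although its highest count, 304, was in Selp high of mouse 4. Ighv1-12 led the heavy chains of Selp high with 131 reads and had 58 in Selp low. In Selp low, Igkv6-20 had 2753 reads, 63.9% (62.4 to 65.3%), against 43 in Selp high, and Ighv14-4 led the heavy chains with 260 reads against 4.

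After transplantation each library had its own leading segment. Igkv6-32 led Selp high-derived replicate 1 with 2240 reads, 68.2% of V reads (66.6 to 69.8%), beside 859 reads of Ighv3-6. Igkv1-135 led Selp high-derived replicate 3 with 1162 reads, 54.2% (52.1 to 56.4%), beside 365 reads of Ighv1-78. In Selp high-derived replicate 2 no segment stood out, since the leading one, Iglv1, had 14 of 148 reads, 9.46% (5.27 to 15.4%). The Selp low-derived libraries were led by Igkv8-30, Igkv3-2 and Ighv1-81. Igkv8-30 had 2875 reads in replicate 1, 26.4% (25.6 to 27.2%), where Igkv6-23 had 1900 and Igkv3-2 had 1049. Igkv3-2 had 1044 reads in replicate 2, 37.6% (35.8 to 39.4%), beside 971 of Ighv6-3. Ighv1-81 had 173 reads in replicate 3, 18.1% (15.7 to 20.7%), followed by Igkv3-2 with 165.

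**Figure D2:**
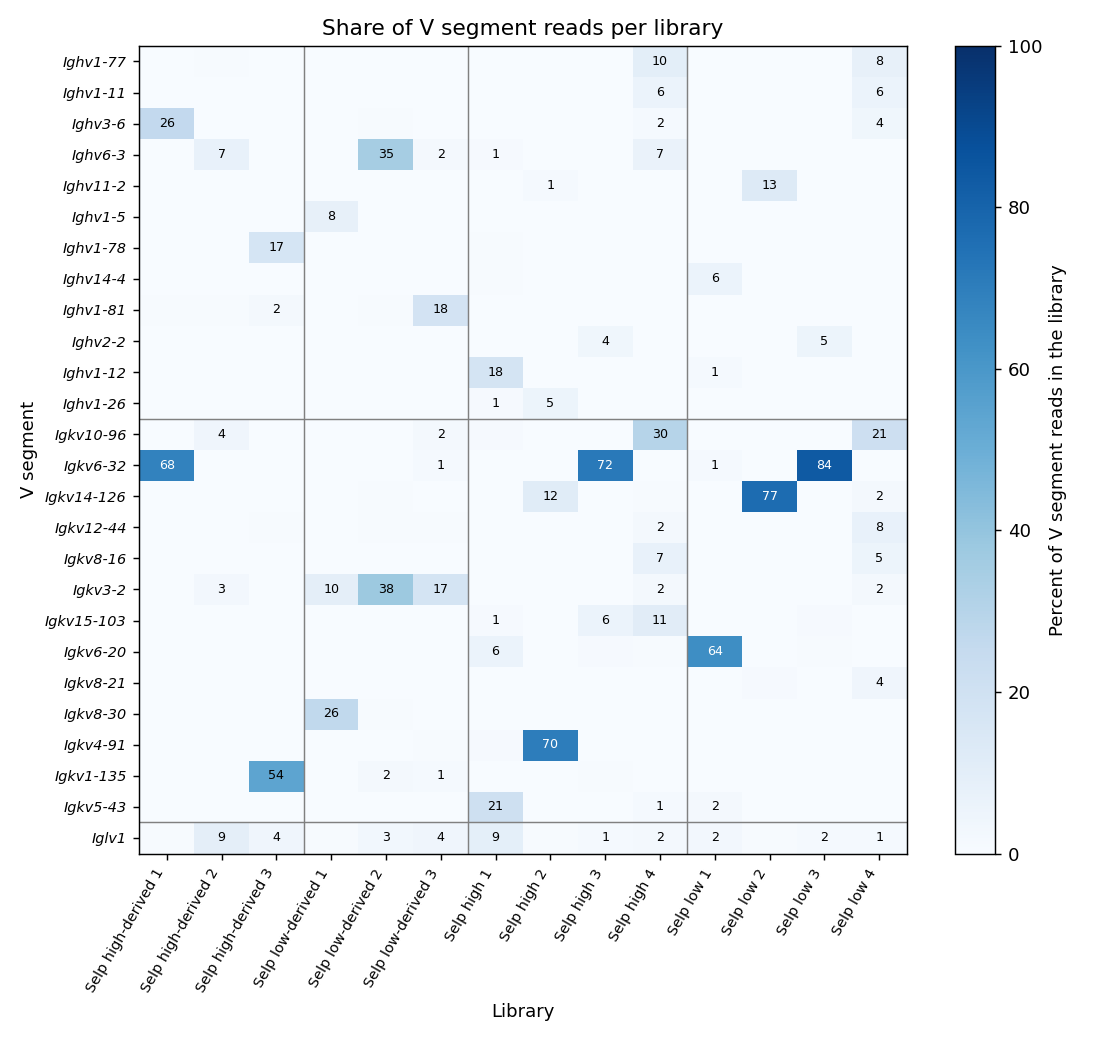
Share of V segment reads, in percent, taken by the 12 largest members and by every segment that led a library or its heavy chains (rows, heavy above kappa above lambda), in each library (columns, Selp high-derived, Selp low-derived, Selp high and Selp low from left to right). Shares of 1% or more are printed, and Igkv6-32 reaches 68 to 84% in 3 libraries while most segments are high in 1 library or in both libraries of 1 mouse.

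Igkv6-32 was the only segment that led a library before transplantation and a library after it. The chains beside it differed. Selp high-derived replicate 1 had 859 reads of Ighv3-6 and 0 of Ighv2-2, against 0 reads of Ighv3-6 in both libraries of mouse 3. Among J segments, whose reads are few, Igkj5 had 0 reads in Selp high-derived replicate 1, against 31 and 43 in mouse 3. Ighj4 had 20 reads there against 0 and 1 in mouse 3, and Ighj3 had 0 against 20 and 12. Reads of the heavy-chain class differed as well, as described below for Ighm and Ighg1.

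Members were far more confined to 1 library than other genes. Of 66 members with at least 100 reads, 29 (43.9%) had at least 90% of their reads in 1 library, and 56 (84.8%) had at least 50%. Among 16393 other genes with at least 100 reads, 3 (0.0183%) and 42 (0.256%) did. The median member had 88.8% of its reads in its top library, against 11.3% for other genes. Without both libraries of mouse 4, an alternative added after the data were seen, 19 of 34 V segments with at least 100 reads had at least 90% in 1 library. The read totals chose the members, so these shares are a description, with no test.

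Pre-transplant libraries with the same number, taken as the 2 sorts of 1 mouse, shared V use more than those with different numbers did. That pairing was itself accepted from these counts, so the sharing is a description and no support for it. Shared use is the sum over members of the smaller of the 2 libraries' shares. It was 17.4, 16.9, 81.9 and 55.4% between the Selp high and Selp low libraries of mice 1 to 4, against 2.33 to 11.8% over the 24 pairs of pre-transplant libraries from different mice. The ranges did not overlap. After transplantation, same-numbered libraries shared 1.65, 21.6 and 21.4%, within the 3.01 to 34.0% of the 12 other pairs but for the first, which was lower. Across stages the 48 pairs shared 1.21 to 70.2% with a median of 6.07%. The highest were those of Selp high-derived replicate 1 with Selp low replicate 3 (70.2%) and with Selp high replicate 3 (69.7%), both through Igkv6-32.

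**Figure D3:**
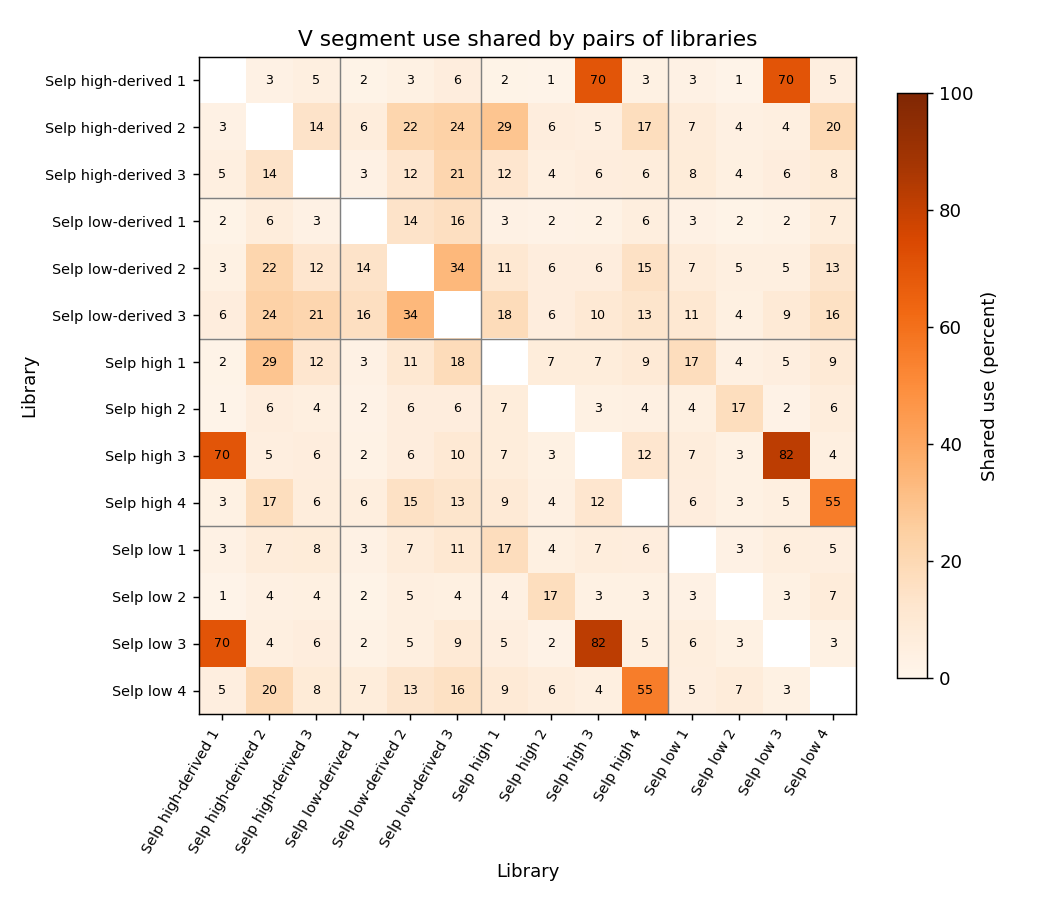
Shared V segment use, in percent, between each pair of libraries, with rows and columns in the order Selp high-derived, Selp low-derived, Selp high and Selp low. Libraries of the same mouse share 17 to 82%, different mice before transplantation at most 12%, and Selp high-derived replicate 1 shares 70% with both libraries of mouse 3.

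The number of segments in use varied as much. When thinned to the 148 V reads of the poorest library, the expected number of segments was 8.48, 41 and 28.0 in Selp high-derived and 16.4, 26.1 and 43.5 in Selp low-derived replicates 1 to 3. It was 33.6, 16.1, 15.5 and 23.3 in Selp high and 18.4, 11.8, 13.3 and 31.1 in Selp low replicates 1 to 4. The 2 stages and the 2 sorts overlapped. Unthinned, 31 to 86 members had a read in post-transplant libraries and 45 to 127 in pre-transplant libraries.

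Only 3 members had a read in every library, namely Iglv1, Ighv6-3 and Ighv6-6. Iglv1, 1 of the few lambda V segments of the mouse, had 15, 14 and 91 reads in Selp high-derived and 68, 77 and 38 in Selp low-derived libraries, against 68, 20, 39 and 423 in Selp high and 106, 42, 39 and 947 in Selp low libraries. Apart from mouse 4 it was the steadiest of the larger members. Ighv6-3 had 1 to 19 reads in 12 libraries, 971 in Selp low-derived replicate 2 and 1699 in Selp high replicate 4. Ighv6-6 had 4 to 60 reads in 13 libraries and 1908 in Selp low replicate 4.

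Constant regions, which set the antibody class and were counted apart from the V segments, also differed from mouse to mouse. In mouse 3, Ighg1 (the IgG1 class) had 2550 of 3502 heavy-chain constant reads in Selp high and 3154 of 4051 in Selp low. In mouse 2 nearly all were Ighm (IgM, the class of unswitched B cells), with 2673 of 2726 in Selp high and 8990 of 9039 in Selp low. Mouse 4 had Ighm beside Ighg2b, with 21321 and 12422 of 38566 reads in Selp high, and 67228 and 40942 of 125725 in Selp low. In mouse 1, Ighg1 had 1463 of 2282 reads in Selp high but 531 of 5057 in Selp low, where Ighm had 4252. The class was thus alike in both sorts of mice 2, 3 and 4 and differed between those of mouse 1. Ighe (IgE) had no read in any library.

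After transplantation Ighg1 had at most 21 reads in a library. Igha, the class of mucosal antibodies, was high in some libraries of both stages, and before transplantation it had 3833 reads in Selp low replicate 4 and at most 54 elsewhere. Ighm had 5622 of 5742 reads in Selp high-derived replicate 1, 515 of 590 in replicate 2 and 1984 of 4772 in replicate 3, where Igha had 2379. In Selp low-derived replicate 1, Ighm had 18151, Igha 5730 and Ighg2b 4551 of 28610 reads. Ighm had 7493 of 7790 in replicate 2, and in replicate 3 Ighm had 2052 and Igha 1729 of 4273. Igkv6-32 thus stood beside Ighm in Selp high-derived replicate 1 and beside Ighg1 in mouse 3, where Ighm had 841 and 790 reads in Selp high and Selp low.

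**Figure D4:**
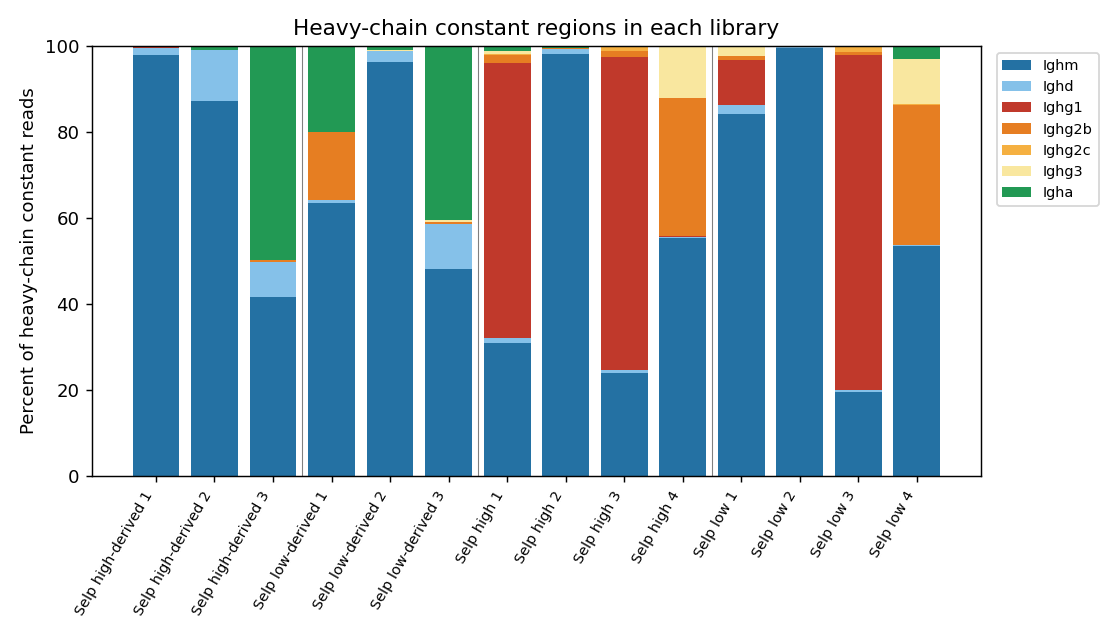
Share of each heavy-chain constant region among all heavy-chain constant reads of a library, in percent, as stacked bars, with libraries in the order Selp high-derived, Selp low-derived, Selp high and Selp low. Ighg1 leads in mouse 3 and in Selp high replicate 1, Ighm in both libraries of mouse 2, and Igha is large in 3 post-transplant libraries.

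Groups were tested by edgeR's quasi-likelihood test on all 16878 genes that passed a filter on low counts, with Benjamini-Hochberg adjustment and a call at an adjusted p under 0.05. Of the 153 members 41 passed that filter and 112 did not, among them Ighv1-77, Ighv1-11, Igkv8-16, Igkv8-21 and Igkv4-91, whose reads lie in few libraries. A member that passed through the group where it is high had to differ, so counts and medians among the 41 do not stand for all members. The median over all genes is thus no even reference for theirs.

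The comparison of Selp high with Selp low asked which genes part LT-HSCs with much and little P-selectin. EdgeR called 0 of the 41 members and 0% of all genes tested. At an unadjusted p under 0.05 there were 9 members and 863 genes, and DESeq2 called 11 genes and 0 of the 12 members to which it gave an adjusted p, with none given for 29. The 9 members were Igkv15-103, Ighv6-3 and Ighv7-1, with higher values in Selp high, and Igkv1-117, Igkv5-48, Igkv17-121, Ighv6-6, Iglv2 and Ighv8-8, with lower ones. With Igkv8-34, Igkv6-20 and Ighv11-2 they had the 12 smallest p-values, each with an adjusted p of 0.957. Values of these rest on single libraries. Igkv15-103 had 8, 0, 188 and 2839 reads in Selp high and 4, 2, 22 and 31 in Selp low libraries, and Igkv1-117 had 4, 15, 2 and 27 in Selp high and 32, 113, 0 and 2525 in Selp low libraries. In both, mouse 4 held the highest value and the groups overlapped. The median log2 change of the 41 was -1.23, with 31 negative, against -0.02 over all genes.

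With the mouse as a block and the pre-transplant libraries only, edgeR called Igkv14-126, 1 of 12 members tested, beside 2 of 15426 genes (0.013%). Its level was lower in Selp high, by a log2 change of -3.005 ± 0.28 (SE, adjusted p = 0.0384), while without the block it was -3.16 ± 1.81 (adjusted p = 0.957). It had 0, 306, 1 and 150 reads in Selp high and 4, 4386, 0 and 1103 reads in Selp low libraries. Within mice 1, 2 and 4 the Selp high library had the lower count, and in mouse 3 the counts were 1 and 0.

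The comparison of Selp high-derived with Selp low-derived cells asked whether the 2 inputs leave a difference after transplantation. Here edgeR called 0 of 41 members and 0% of all genes, with 7 members and 765 genes at an unadjusted p under 0.05. Those 7 were Igkv6-23, Igkv8-30, Igkv3-2, Igkv8-27, Ighv6-3, Ighv1-50 and Igkv10-94, all with lower values in Selp high-derived cells. Ighv1-52, Igkv1-135, Igkv4-55, Igkv3-1 and Igkv4-70 came next. Igkv3-2 had 0, 4 and 1 reads in Selp high-derived and 1049, 1044 and 165 reads in Selp low-derived libraries, and the groups did not overlap. Its log2 change was -8.70 ± 3.06 (SE, edgeR adjusted p = 0.980). Igkv8-30 had 0, 0 and 0 reads in Selp high-derived and 2875, 18 and 0 in Selp low-derived libraries, which overlap at 0. DESeq2 called 24 genes, among them 1 of 19 members with an adjusted p, Igkv14-126 (log2 change -19.8, adjusted p = 2.06e-06). It had 0, 0 and 0 reads in Selp high-derived and 3, 21 and 1 in Selp low-derived libraries. With 1 group at 0 the size of that change is not defined. EdgeR gave Igkv14-126 a log2 change of -6.14 ± 5.98 (SE, adjusted p = 0.980), so the DESeq2 call rests on the method. The median log2 change of the 41 was -1.21, against 0.01 over all genes, and -1.27 with the 11 members at 0 in 1 group set to their bound and 2 at 0 in both groups left out.

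For the difference of the Selp differences between the stages, edgeR called 0 of 41 members and 0% of all genes. At an unadjusted p under 0.05 there were 6 members, Ighv6-3, Igkv8-27, Igkv6-23, Ighv7-1, Igkv5-48 and Igkv3-2, and 874 genes. Igkv8-34, Ighv3-6, Igkv15-103, Igkv10-94, Igkv17-121 and Igkv8-30 followed, and the smallest adjusted p was 0.879. Ighv6-3 had 1, 11 and 7 reads in Selp high-derived and 11, 971 and 19 in Selp low-derived libraries, and 8, 10, 4 and 1699 in Selp high and 2, 11, 6 and 13 in Selp low libraries. Its values rest on 1 library in each stage. DESeq2 called 9 genes and 1 of 19 members with an adjusted p, Igkv14-126 (log2 change -16.6, adjusted p = 0.0437). This call too rests on a Selp high-derived group with no read. EdgeR gave Igkv14-126 a log2 change of -2.98 ± 6.97 (SE, adjusted p = 0.959).

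Between the stages 13 of the 41 members were called by edgeR, 2 higher and 11 lower after transplantation. This is 31.7% of the members tested, beside 27.4% of all 16878 genes tested (12.9% higher and 14.6% lower). The share of members called was thus near that of genes at large. The median log2 change of the 41 was -2.82 after transplantation, with 34 negative, against -0.01 over all genes. Members that passed the filter through pre-transplant libraries where they are high tend to be negative by that choice, so this median is a description only. Without the 3 libraries with the most neutrophil RNA it was -1.11 over 31 members tested, with 19 negative. For all 13 called members the ranges of the 2 stages overlapped, as they did for all 41 tested. The share of all genes whose stages overlap is not given here, so these counts are not set against genes at large.

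Ighv1-81 was higher after transplantation. It had 23, 1 and 40 reads in Selp high-derived and 25, 11 and 173 in Selp low-derived libraries, against 0, 2, 1 and 4 in Selp high and 0, 0, 0 and 18 in Selp low libraries. It had at least 1 read in all 6 post-transplant and in 4 of 8 pre-transplant libraries, and the log2 change was 3.80 ± 1.05 (SE, edgeR adjusted p = 0.0151). Since it passed the filter through post-transplant libraries where it is high, the direction of this test was set by that choice and its p-value is no support. Without Selp low-derived replicate 3 the adjusted p was 0.0834. Igkv1-135 was the other member called higher (log2 change 3.74 ± 1.26, adjusted p = 0.0394). Its 1162 reads in Selp high-derived replicate 3 stood against 0 to 59 elsewhere, and without that library its log2 change was -0.43.

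Igkv6-20 was lower after transplantation. It had 0, 0 and 1 reads in Selp high-derived and none in Selp low-derived libraries, against 43, 1, 25 and 186 in Selp high and 2753, 1, 11 and 52 in Selp low libraries. All 8 pre-transplant libraries thus had a read and 1 of 6 post-transplant libraries did. With 1 post-transplant read, the ratio of pre-transplant to post-transplant level was 2145, with a 95% counting interval of 385 to 84745. Of the 3072 pre-transplant reads 2753 were in Selp low replicate 1, and without that library the ratio was 256. Igkv6-20 was called (edgeR adjusted p = 0.0111) and was the only member called in each of the 18 alternatives that gave it an adjusted p. It passed the filter only through pre-transplant libraries, so the direction of this test was fixed in advance and its p-value is no support. The alternatives reuse the same libraries and add no support.

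Ighv11-2 and Ighv2-2 had no read in any post-transplant library. Against a floor of 3 counts over the 6 libraries they were at least 228-fold and at least 63.8-fold lower than before transplantation. Their edgeR adjusted p were 0.0281 and 0.0463. Both passed the filter only through pre-transplant libraries, so the direction of these tests was fixed in advance and their p-values are no support. Of 979 pre-transplant reads of Ighv11-2, 754 were in Selp low replicate 2. Of 274 of Ighv2-2, 120 and 134 were in the libraries of mouse 3. A fall with transplantation and use by single mice cannot be told apart here. Without Selp low replicate 2 the bound for Ighv11-2 was 62.6-fold, and without Selp low replicate 3 that for Ighv2-2 was 36.7-fold. Ighv11-2 had a read in 5 of 8 pre-transplant libraries and Ighv2-2 in 4. Igkv14-126 had 0, 0 and 0 reads in Selp high-derived and 3, 21 and 1 in Selp low-derived libraries, against the 1 to 4386 reads in 6 of 8 pre-transplant libraries given above, a log2 change of -8.43 ± 2.40 (adjusted p = 0.0210). Igkv14-126 too passed the filter through pre-transplant libraries where it is high, so its p-value is no support. Without the 3 libraries with the most neutrophil RNA its edgeR adjusted p was 0.0523. As a description only, both chains of the pair singled out above and the leading heavy segment of mouse 3 were low or at 0 after transplantation.

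Igkv5-43 (3 reads after and 561 before transplantation), Ighv14-4 (3 and 304), Igkv8-19 (4 and 130), Igkv15-103 (17 and 3094), Igkv12-44 (29 and 5855), Igkv10-96 (37 and 22606) and Igkv1-117 (37 and 2718) made up the rest of the calls. These members passed the filter mainly through pre-transplant libraries where they are high, so their p-values are no support either. For Igkv5-43 the ratio of pre-transplant to post-transplant level was 131 (95% counting interval 44.4 to 635) and for Ighv14-4 it was 70.8 (24.0 to 345). Without the library with most of their reads these were 67.2 for Igkv5-43 (Selp high replicate 4 left out) and 11.8 for Ighv14-4 (Selp low replicate 1 left out). The others had log2 changes of -4.08 (Igkv1-117) to -8.79 (Igkv10-96) and adjusted p of 0.0252 (Igkv10-96) to 0.0459 (Igkv1-117). Igkv10-96, Igkv12-44, Igkv15-103 and Igkv1-117 were high in 1 or both libraries of mouse 4. Without the 3 libraries with the most neutrophil RNA the log2 change of Igkv10-96 was 1.21.

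**Figure D5:**
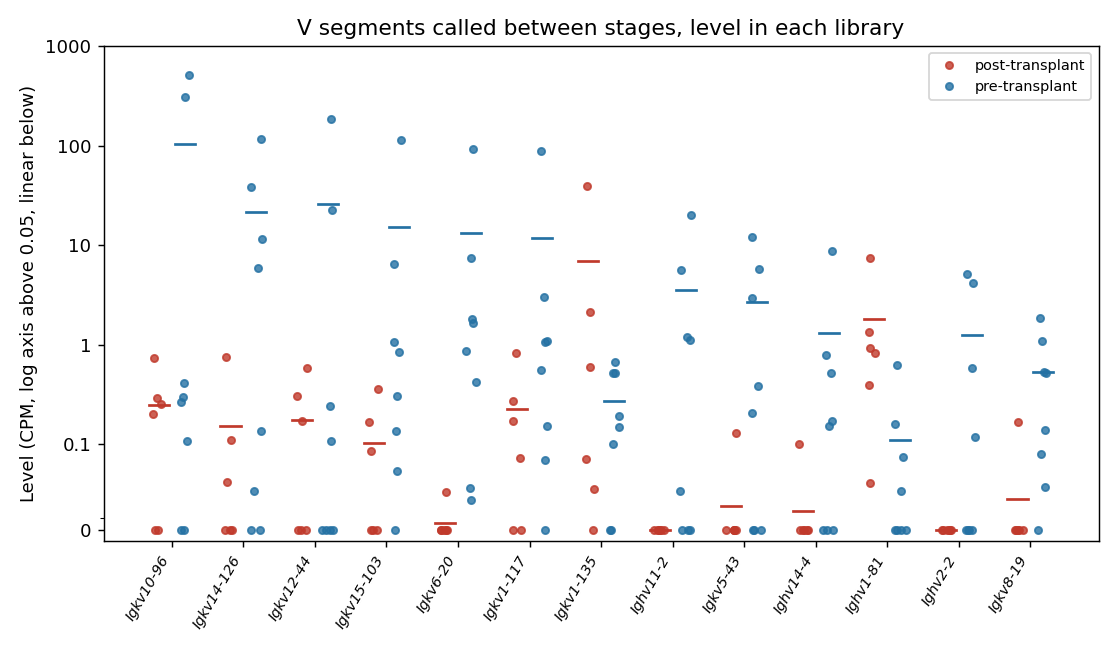
Level of the 13 V segments called between the stages, in CPM (log axis above 0.05, linear below), with post-transplant libraries (6 points) left of pre-transplant libraries (8 points) and bars at the means. In each segment the 2 stages overlap, and only Ighv1-81 and Igkv1-135 have the higher mean after transplantation.

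These calls depended on single libraries. Leaving out 1 library gave 3 to 12 called members. All were among the 13, except 1 of the 5 without Selp high-derived replicate 3. The count was 8 without Selp high replicate 4 and 8 without Selp low replicate 4. It was 5, 6 and 5 without Selp high-derived replicates 1, 2 and 3, and 3, 6 and 4 without Selp low-derived replicates 1, 2 and 3. Without the 3 libraries with the most neutrophil RNA 4 members were called, of 31 tested, beside 31.5% of all genes in that fit. Ighv1-81, Igkv10-94 and Igkv3-2 were higher after transplantation (log2 changes 7.02, 5.96 and 3.12) and Igkv6-20 was lower (-9.22). DESeq2 called 8 of 19 members with an adjusted p, all among the 13, and with no filter on low counts edgeR called 28 of 153. Called in an alternative only were Ighv1-11, Ighv1-12, Ighv1-26, Ighv1-42, Ighv1-55, Ighv1-77, Ighv1-82, Ighv14-2, Igkv10-94, Igkv11-106, Igkv12-89, Igkv3-12, Igkv3-2, Igkv4-50, Igkv4-57, Igkv8-16 and Igkv8-28.

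Antibody constant regions and the J chain, which links IgM and IgA units, formed a list of 13 genes, of which 12 were tested. After transplantation Ighd rose and Ighg1, Ighg2c and Ighg3 fell, with a list median log2 change of -1.74. Ighd, the IgD class of naive B cells, was at 2.90 to 19.2 CPM after and 0.695 to 5.82 CPM before transplantation (log2 change 1.78 ± 0.58, edgeR adjusted p = 0.0348). It lost its call without any 1 of 7 libraries, namely Selp high replicates 1, 2 and 3, Selp low replicates 2 and 3, Selp high-derived replicate 3 and Selp low-derived replicate 3 (largest adjusted p 0.141). Ighg1 had 22 reads after and 7949 before transplantation (adjusted p = 0.00579). Ighg3 lost its call in 6 of 18 alternatives and Ighg2c in 2 of 19, both among them without the 3 libraries with the most neutrophil RNA. Of 17828 pre-transplant reads of Ighg3, 4587 and 13093 were in Selp high and Selp low of mouse 4. Of 337 of Ighg2c, 224 were in Selp low replicate 4. Igkc, Ighm and Ighg2b, the list's most abundant genes, were not called. Igkc reached 1700 and 3592 CPM in mouse 4 and ran from 3.49 to 640 CPM in the 12 other libraries.

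Genes of V(D)J recombination numbered 13 tested of 14, with 4 higher, 1 lower and a median of 0.28. Those called are mainly general DNA repair or chromatin genes that other cells use too. Xrcc5 and Xrcc6 (Ku, which holds DNA ends), Prkdc (the DNA-dependent kinase) and Hmgb2 (a DNA-bending protein) rose after transplantation and Polm, a gap-filling polymerase, fell. Their log2 changes were 0.61 ± 0.08, 0.28 ± 0.08, 0.79 ± 0.19, 1.11 ± 0.24 and -1.08 ± 0.18, with Hmgb1 and Xrcc6 the most abundant. Xrcc6 lost its call in 7 of 19 alternatives, the other 4 genes in none. Rag1 and Rag2, the enzyme itself, were at most 0.252 and 0.607 CPM in any library and at 0 in 3 and 6 of 14.

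Of 10 B cell precursor genes tested none was called in any comparison (median -0.19 between stages), with Cd79b, Cd79a and Blnk the most abundant. Of 16 mature B cell genes, H2-Ob rose after transplantation, at 17.3 ± 4.31 CPM (n = 6) against 8.63 ± 3.36 CPM before (SD, n = 8, edgeR adjusted p = 0.00499), and 15 were not called (median 0.23). Cd79b, Cd72 and H2-Ob were the most abundant of that list. The B cell surface genes Ms4a1 and Cd79a ran from 0.723 to 13.6 and 2.55 to 22.6 CPM. Cd79b, which pairs with Cd79a in the B cell receptor, ran from 55.05 to 98.4 CPM and varied far less between libraries than the antibody genes. In Selp high-derived replicate 2 it was at 55.4 CPM, above the 3.49 CPM of Igkc and the 6.22 CPM of summed V segments.

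Of 11 plasma cell genes tested, Eaf2 and Xbp1 fell after transplantation (log2 change -1.57 ± 0.28 and -0.29 ± 0.09, adjusted p = 0.000842 and 0.0345) and 9 were not called (median -0.29). Xbp1, a secretion regulator, Txndc5 and Creld2 were the most abundant. Xbp1 lost its call in 10 of 19 alternatives. Jchain, which plasma cells express strongly, reached 29.4 and 205 CPM in Selp high and Selp low of mouse 4, beside summed V levels of 1022 and 2404 CPM. Jchain does not stand for the list. The summed list was at 820 CPM in Selp high of mouse 4, the lowest of the Selp high libraries. In Selp low of mouse 4 it was at 1213 CPM, the highest of the Selp low libraries. Jchain was at 51.0, 0.336 and 31.1 CPM in Selp high-derived and 109, 4.80 and 31.9 CPM in Selp low-derived libraries. Selp high-derived replicate 2, lowest in V segments, was also lowest in Jchain and Igkc, while the summed plasma cell list ran only from 824 to 835 CPM in Selp high-derived libraries.

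Among other cell types, Smim5 of 7 plasmacytoid dendritic cell genes and Cd247, Lat and Lck of 11 T cell genes fell between stages (medians -1.17 and -1.30). Smim5, Ly6d and Siglech, and Lat, Lck and Cd247, were the most abundant of those lists. None of 10 neutrophil (median -1.25, led by Ngp, S100a8 and S100a9), 9 monocyte and macrophage (-0.05, led by Ly6c2, Cd68 and Csf1r) and 9 erythroid genes (-0.09, led by Hbb-bs, Hba-a1 and Hbb-bt) was called. Of 12 LT-HSC genes, those that fell included Slamf1, Procr, Ctnnal1, Gata2, Hlf, Hoxb5 and Ly6a (median of the list -0.44). Procr lost its call in 5 of 19 alternatives and Ly6a in 11. In the comparisons of Selp high with Selp low, of Selp high-derived with Selp low-derived cells and of their difference, edgeR called no gene of any of the 11 lists and 0% of all genes.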

How the data were processed

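RNA-seq libraries (14) were made by template switching and tagmentation, per the labels' protocols, which does not mark strand. The authors deposited read counts per gene as whole numbers; the submitters' processing notes name STAR 2.7.0d, FastQC 0.11.9, Picard 2.23.0 and GRCm38. The column that ignores strand was taken. Neither annotation release nor counting options are stated, and all 55450 identifiers matched GENCODE vM21. Multimapping reads (9.93 to 13.4%), and unmapped, unassigned and ambiguous ones, were left out, which lowers the counts of near-identical V segments. Reads carried no molecular identifiers, so counting intervals treat PCR copies as independent.

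The test was edgeR 4.0.16 (quasi-likelihood, R 4.3.3) on 4 group means over 14 libraries, with TMM factors of 0.963 to 1.042, a minimum count of 10 in edgeR's filter and 10 residual degrees of freedom. The stage comparison is the mean of both post-transplant groups over the mean of both pre-transplant groups. Its effect sizes are log2 fold changes with SE, and levels are CPM. DESeq2 1.42.0, other scaling, no filter, summed strand counts, a replicate block and libraries left out were tried. On simulated data with 200 genes changed by 1.5 on the log2 scale, 83.5, 77.0 and 92.0% were recovered in the Selp high, Selp high-derived and stage comparisons. The 200 were drawn from all tested genes above a minimum mean level, so these shares do not stand for V segments. In the Selp high comparison the SE of members ran from 0.92 (Igkv14-111) to 2.535 (Igkv8-30) on the log2 scale, so a change of 1.5 could easily be missed. Same-numbered libraries deviated together before transplantation (r of 0.29 to 0.53 across genes, others -0.40 to 0.05) and not after it (-0.05 to 0.02), so only pre-transplant numbers were taken as pairs.

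Members and gene lists were chosen with earlier results of these data known. Named are the 12 members with the most reads, members called in any setting, the 12 with the smallest p per comparison, the leading segment of each library, and of each list the 3 most abundant and all called genes. Others were chosen after their values were seen, namely leading heavy segments, J segments, constant regions by library and single B-lineage markers. Single genes of the marker lists are not all reported here.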

Additional observations from a re-analysis of the deposited data

Results flagged for a closer look

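In the groups of 4 libraries, 1 library lay far from the other 3 in 13 of 34 sets of values examined. In independent, normally distributed sets, chance sets 1 library apart in about 1 set of every 20. The sets here share their libraries and are skewed, so that rate is a rough guide only. All 13 were libraries of mouse 4. For summed V segments these were Selp high replicate 4 at 1022 CPM and Selp low replicate 4 at 2404 CPM. By class they were 306 and 742 CPM for heavy, 696 and 1549 CPM for kappa and 19.6 and 113 CPM for lambda segments, Selp high before Selp low. The list of constant regions and J chain stood at 3274 CPM in Selp high replicate 4 and 8268 CPM in Selp low replicate 4. Erythroid markers stood at 2118 and 2591 CPM in the same libraries, and monocyte and macrophage markers at 490 CPM in Selp low replicate 4. Over single members, 1 library stood apart in 169 of 281 sets of 4 values with any spread, of which 63 were Selp high replicate 4 and 72 Selp low replicate 4.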

How the results depend on the processing

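The count of members called between stages (13) was 8 with DESeq2 (adjusted p given for 19 of 41 members), 28 with no filter on low counts, 4 without the 3 libraries with the most neutrophil RNA, and 3 to 12 with 1 library left out. Leaving out a post-transplant library lowers the group size in the filter, so that 68 to 74 members were tested. RLE factors and summed strand counts gave 13. For Selp high against Selp low, Selp high-derived against Selp low-derived and the difference between them, 1 library left out gave 0 calls each. DESeq2 gave 1 call in each of the last 2, both times Igkv14-126, which had no read in Selp high-derived libraries. The replicate block gave 1 call before transplantation (Igkv14-126) and 1 after it (Igkv3-2, log2 change -8.65, adjusted p = 0.005), where the numbers do not pair the libraries.

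The log2 ratio of summed levels for Selp high against Selp low (-1.16) ran from -3.17 to 1.24 with 1 library left out, that for Selp high-derived against Selp low-derived (-1.47) from -2.20 to -0.12, and that for the stages (-2.05) from -2.91 to -0.95. The stage ratio was 0.27 without the 3 libraries. Other scaling, other read minimums for membership and leaving out Igkv10-96 moved these ratios by less than the spread between libraries. Among called members, those reversed were Igkv1-135 without Selp high-derived replicate 3 (-0.43; range with 1 library left out -0.43 to 4.28) and Igkv10-96 without the 3 libraries (1.21). Of 29 members tested in both fits, 7 turned sign without the 3 libraries: Igkv10-96, Igkv3-2 (-2.32, 3.12 without them, adjusted p = 0.0431), Igkv17-121, Ighv6-3, Ighv6-6, Igkv5-39 and Iglv3. Members with at least 90% of reads in 1 library numbered 29, and 19 without mouse 4. Depth limits segments with few reads, whose absence from a library was not shown.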
